A study of Bos taurus with 14 samples.

Results

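Chaperones are proteins that help other proteins to fold, keep them from clumping and pass damaged ones on for disposal. The chaperone and heat-shock probes of a bovine array were taken by gene name: every non-control probe whose printed symbol, or symbol in brackets in its description, begins with HSP followed by A, B, D, E, H or 90, with DNAJ, CCT and a number, TCP1, BAG or STIP1, or is CANX or CALR. This gave 44 of 15011 probes, for 41 of the 5874 genes that could be named. They were measured in Holstein cattle (heifers or steers) before and 7 days after an oral dose of 0.2 mg β-cryptoxanthin, a carotenoid that can be converted to vitamin A, per kg body weight on day 0. Liver of 3 animals (58, 61 and 66) was sampled on day 7 and day 0, and neutrophils isolated from peripheral blood of 4 other animals (25, 26, 32 and 34) were sampled on the same days, which gave 14 single-colour (Cy3) arrays in 4 groups. All animals received the agent, and untreated animals were not analysed here, so a day difference cannot be told apart from any other difference between the days. The arrays of day 7 also lay in another row of each slide than those of day 0, and the day and this position cannot be told apart.

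The cytosolic system centres on HSP70, which binds and releases unfolded segments in a cycle driven by ATP, and on HSP90, which acts later on receptors and kinases. J-domain proteins, the DNAJ family, deliver clients to HSP70 and switch on its ATPase, BAG proteins exchange its nucleotide, and STIP1 bridges HSP70 to HSP90. The chaperonin CCT, a ring of different subunits of which TCP1 is one, folds actin and tubulin, while the endoplasmic reticulum and the mitochondrion have chaperone sets of their own, and small heat-shock proteins hold unfolding proteins without using ATP. Liver makes large amounts of secreted protein that folds in the endoplasmic reticulum and is rich in mitochondria, whereas neutrophils are short-lived cells with few mitochondria.

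Each member was read through 60-base probes, and 4 of these sequences are shown. The first is from an inducible HSP70 gene, whose 2 probes disagreed on 1 array, and the next from HSPA2, a second HSP70 gene. Then come CANX, which had the lowest p among the members for a day difference in liver as reported, and DNAJC19, a member far higher in liver. All are written 5′ to 3′ as deposited.
HSPA1B: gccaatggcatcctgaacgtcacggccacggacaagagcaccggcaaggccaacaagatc
HSPA2: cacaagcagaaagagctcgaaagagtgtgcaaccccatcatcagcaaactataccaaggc
CANX: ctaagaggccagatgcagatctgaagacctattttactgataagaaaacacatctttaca
DNAJC19: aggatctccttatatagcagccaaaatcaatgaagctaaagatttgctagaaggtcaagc
At least 1 reading frame of each of these probes holds no stop codon. The polyadenylation signal AATAAA, searched as these letters, lies on the probe strand in 8 of 44 member probes (18.2%) and in 1700 of all 15011 probes (11.3%), and on the other strand in 2 (4.55%) and 627 (4.18%). The probe printed as HSPA1A holds it and the probe printed as HSPA1B does not. Both now name the same gene in the RefSeq gene table, and since HSPA1A and HSPA1B are near-identical copies, either probe may read both.

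A log2 level here is log2 of the processed spot signal minus log2 of the 75th percentile of its array, so a level of 0 is the 75th percentile, and levels of different probes are not set against each other. Of the 44 probes, 32 were well above background on all 14 arrays, 40 on all 6 liver arrays and 33 on all 8 neutrophil arrays. HSPB3 was not well above background on any array, DNAJB13 on none from liver and DNAJC6 on none from neutrophils. The 15 hepatocyte markers summed to 895 to 1301 times the 75th percentile in liver and 1.94 to 6.06 times in neutrophils, and the 11 neutrophil markers to 4.79 to 12.5 times in liver and 713 to 1495 times in neutrophils. Over all arrays 57.1 to 76.7% of spots were well above background. The weakest array was that of neutrophils of animal 34 on day 7, at 57.1%. In bulk samples, fewer cells of a type and less RNA per cell cannot be told apart.

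**Figure D1:**
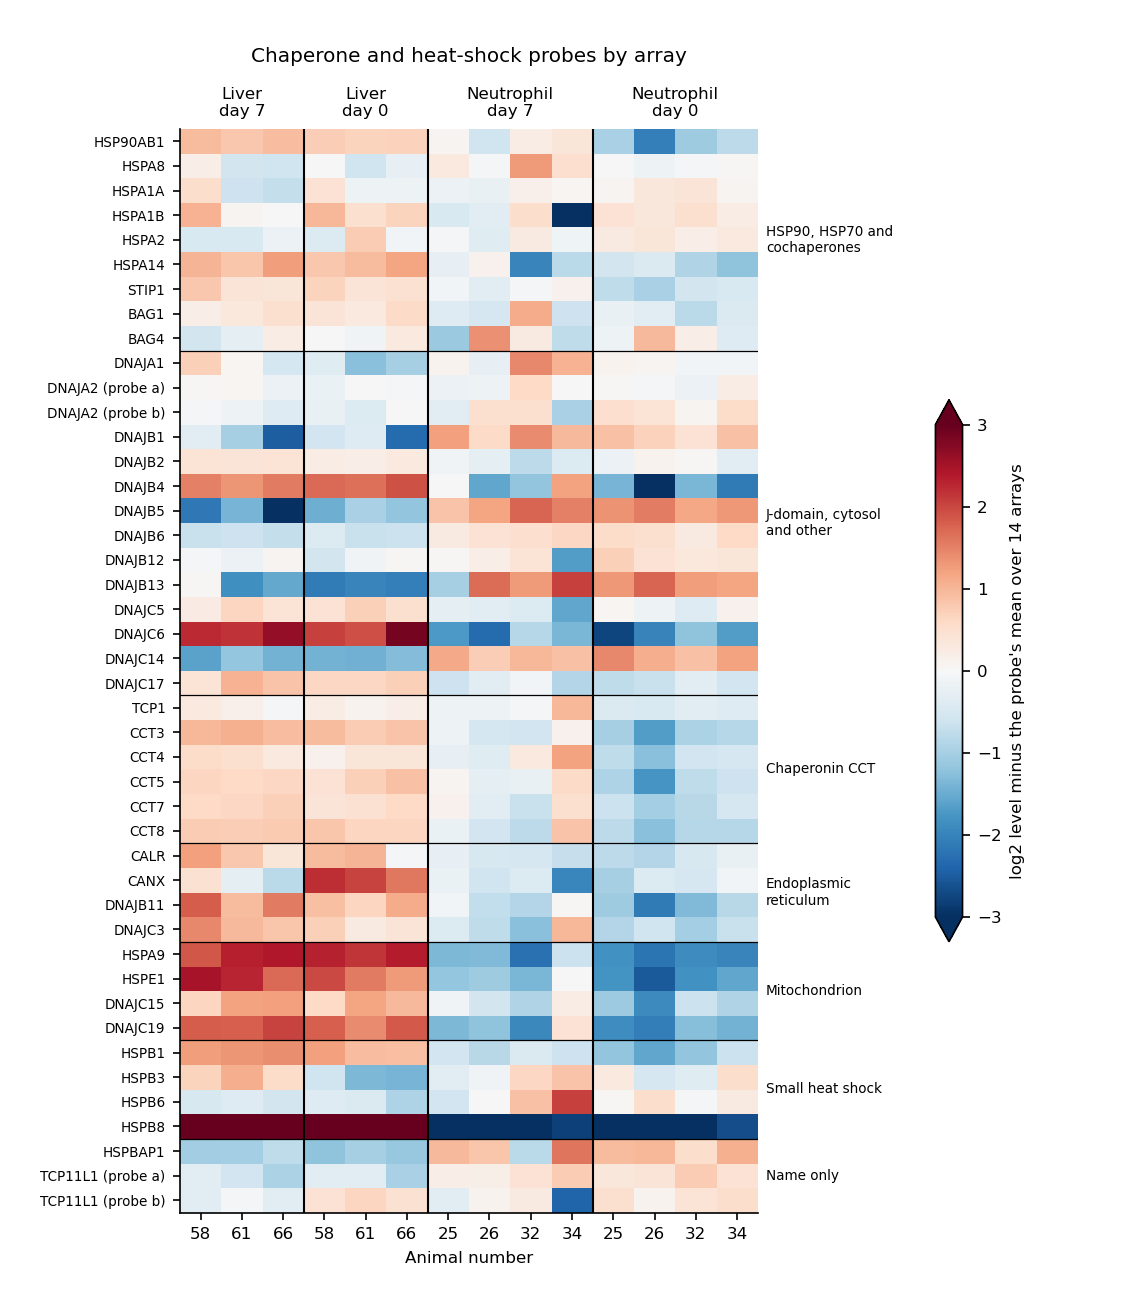
Log2 level of each of the 44 member probes (down the page, by role) on each of the 14 arrays (across, by tissue, day and animal), shown as the difference from that probe's mean over all arrays. Liver stands above neutrophils for HSPB8, HSPA9, HSPE1, DNAJC19 and DNAJC6, and below them for DNAJC14 and DNAJB5.

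The members differed far more between tissues than between days. On day 0, 24 of the 42 members tested (57.1%) were higher in liver than in neutrophils and 10 (23.8%) were lower, against 39.7% and 43.4% of all 11494 probes tested (limma, adjusted p under 0.05). Their median difference was 0.96 on the log2 scale, against -0.12 for all probes. On day 7, 17 of 41 were higher in liver (41.5%) and 6 lower (14.6%), against 34% and 35.1% of all 10205 probes, and the medians were 0.59 for the members and -0.03 for all probes. Tissue, slide and animals go together in this design and cannot be told apart. In liver, 0 of 42 members were higher on day 7 than on day 0 and 2 (4.76%) were lower, CANX and 1 of the TCP11L1 probes, against 2.67% and 1.32% of all 10930 probes. In neutrophils 0 of 36 members passed, against 0% of all 9448 probes tested (limma), with 10 members and 13.4% of all probes at an unadjusted p under 0.05. The test of whether the day change differed between tissues passed for 0 of 36 members, against 1.17% of all 8838 probes, with 6 members and 13.5% of all probes at an unadjusted p under 0.05.

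**Figure D2:**
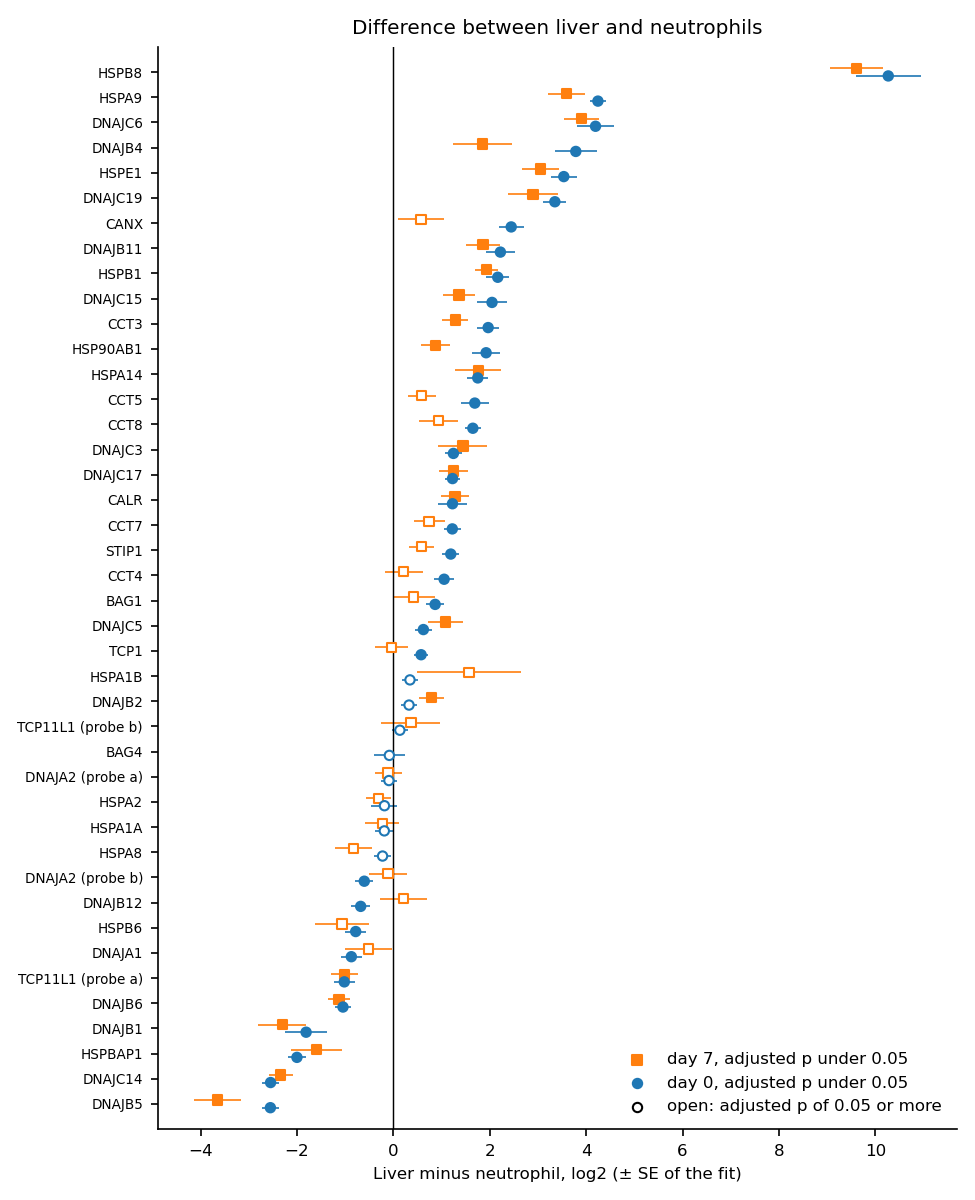
Difference in log2 level between liver and neutrophils for each member tested, with the standard error of the fit, on day 7 (squares) and day 0 (circles), filled where the adjusted p was under 0.05. HSPB8 lies far to the right at 9.61 on day 7 and 10.27 on day 0, with 2 of 4 neutrophil arrays well above background on each day, and DNAJB5 to the left at -3.65 on day 7, with 1 of 3 liver arrays well above background, and -2.55 on day 0.

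Among the cytosolic HSP90 and HSP70 genes, the 2 HSP90 genes went opposite ways between tissues. HSP90AB1, the constitutive cytosolic HSP90, had day 0 levels of 5.12, 5.05 and 5.08 in liver, against 3.40, 2.32, 3.31 and 3.59 in neutrophils. It was 3.8-fold higher in liver (log2 1.93 ± 0.30, SE, adjusted p = 0.000343), and the tissues did not overlap. HSP90AA1, the inducible cytosolic HSP90, is printed under another name and so lies outside the name rule. Its day 0 levels were 3.79, 3.53 and 3.52 in liver, against 6.32, 6.63, 6.45 and 6.33 in neutrophils, 7.06-fold lower in liver (-2.82 ± 0.16, adjusted p = 7.18e-07). On day 7 the differences were 0.87 ± 0.29 for HSP90AB1 (adjusted p = 0.0266) and -2.76 ± 0.33 for HSP90AA1 (adjusted p = 8.89e-05).

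HSP90AB1 was also the member with the smallest p for a day difference in neutrophils. Its neutrophil levels were 4.46, 3.79, 4.59 and 4.74 on day 7, against 3.40, 2.32, 3.31 and 3.59 on day 0. All 4 animals were higher on day 7 and the days did not overlap, by 2.36-fold, which did not pass over all probes (1.24 ± 0.23, limma adjusted p = 0.298). In liver its levels were 5.32, 5.19 and 5.29 on day 7, against 5.12, 5.05 and 5.08 on day 0 (0.19 ± 0.10, adjusted p = 0.408), also without overlap. The day change in liver minus that in neutrophils was -1.05 ± 0.24 and did not pass (adjusted p = 0.0896); without animal 34 it was -1.08 and passed (adjusted p = 0.0422), and over all alternatives the adjusted p lay between 0.0372 and 0.409. HSP90AA1 had day changes of 0.28 ± 0.10 in liver (adjusted p = 0.278) and 0.22 ± 0.29 in neutrophils (adjusted p = 0.737).

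Of the cytosolic HSP70 genes tested between tissues on day 0, only HSPA14 passed. HSPA8, the constitutive HSP70 that also uncoats clathrin vesicles, had day 0 levels of 5.29, 4.70 and 5.06 in liver, against 5.27, 5.13, 5.23 and 5.33 in neutrophils. The groups overlapped and the difference of -0.22 ± 0.18 did not pass (adjusted p = 0.271), with a sign that turned to 0.18 under quantile normalization. HSPA1A, the stress-inducible HSP70, had 4.41, 3.81 and 3.81 in liver, against 4.06, 4.31, 4.37 and 4.05 in neutrophils on day 0 (-0.19 ± 0.20, adjusted p = 0.410). That difference turned to 0.23 under quantile normalization and was -0.59 with the trend along the array rows removed, where it passed (adjusted p = 0.0292). The probe printed as HSPA1B had 0.35 ± 0.17 on day 0 (adjusted p = 0.0928) and that of HSPA2, best known from the testis, had -0.18 ± 0.27 (adjusted p = 0.539). HSPA14, an HSP70 relative bound to the ribosome, was higher in liver on day 0 (1.75 ± 0.22, adjusted p = 0.000103). On day 7 the differences between tissues were -0.83 ± 0.38 for HSPA8 (adjusted p = 0.0795), -0.23 ± 0.35 for HSPA1A (adjusted p = 0.579) and 1.57 ± 1.08 for the HSPA1B probe (adjusted p = 0.224), none of which passed.

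Over time HSPA8 in neutrophils had 5.58, 5.25, 6.57 and 5.8 on day 7, against 5.27, 5.13, 5.23 and 5.33 on day 0. All 4 animals were higher on day 7, most of all animal 32, and the days overlapped (0.56 ± 0.29, adjusted p = 0.423). HSPA1A in neutrophils had 3.79, 3.75, 4.12 and 4.03 on day 7, against 4.06, 4.31, 4.37 and 4.05 on day 0 (-0.27 ± 0.24, adjusted p = 0.603). The probe printed as HSPA1B had 1.69, 1.83, 2.68 and -2.38 on day 7, against 2.59, 2.51, 2.64 and 2.39 on day 0. Its mean change of -1.57 ± 0.74 (adjusted p = 0.396) rested on animal 34, where it changed by -4.77 while HSPA1A changed by -0.02, and without that animal it was -0.51. In liver, HSPA1A had 4.49, 3.35 and 3.25 on day 7, against 4.41, 3.81 and 3.81 on day 0, and the HSPA1B probe had 3.19, 2.24 and 2.15 on day 7, against 3.15, 2.65 and 2.83 on day 0. Both were lower on day 7 in animals 61 and 66 and not in animal 58 (-0.31 ± 0.16, adjusted p = 0.415, and -0.35 ± 0.17, adjusted p = 0.383). HSPA8 in liver had a change of -0.05 ± 0.14 (adjusted p = 0.901).

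**Figure D3:**
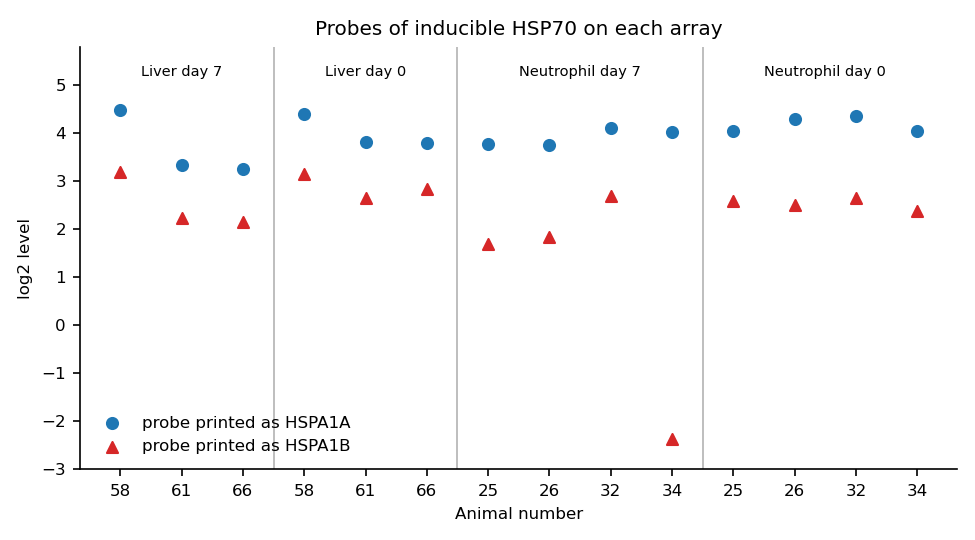
Log2 level of the probes printed as HSPA1A (circles) and HSPA1B (triangles) on each array, by tissue, day and animal. The 2 probes run in parallel in liver, and in neutrophils of animal 34 on day 7 the HSPA1B probe lies at -2.38 and the HSPA1A probe at 4.03.

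STIP1, BAG1, HSPH1 and BAG3, cochaperones of this system, were each higher in liver on day 0. STIP1 had day 0 levels of 1.93, 1.65 and 1.72 in liver, against 0.50, 0.28, 0.71 and 0.80 in neutrophils, 2.28-fold higher in liver (1.19 ± 0.18, adjusted p = 0.0003). On day 7 the difference was 0.59 ± 0.25 and did not pass (adjusted p = 0.0678), and the day values did not overlap in neutrophils, where STIP1 had 1.19, 0.94, 1.21 and 1.39 on day 7 (0.61 ± 0.23, adjusted p = 0.339). HSPH1, a nucleotide exchange factor of the HSP110 type printed under another name, had 0.97, 0.27, 1.43 and 1.83 in neutrophils on day 7, against 0.11, -1.19, 0.21 and -0.10 on day 0. It was higher on day 7 in all 4 animals without overlap and did not pass (1.37 ± 0.27, adjusted p = 0.298). HSPH1 was higher in liver than in neutrophils on day 0 (1.31 ± 0.34, adjusted p = 0.00655) and not on day 7 (-0.31 ± 0.43, adjusted p = 0.537). In liver its day change was -0.25 ± 0.16 (adjusted p = 0.520), and the difference between tissues did not pass (-1.62 ± 0.33, adjusted p = 0.0624). BAG1 was higher in liver on day 0 (0.87 ± 0.19, adjusted p = 0.00236) and had 0.42 ± 0.44 on day 7 (adjusted p = 0.409). BAG3, which joins HSP70 to small heat-shock proteins and autophagy, is also printed under another name and was 10.4-fold higher in liver on day 0 (3.37 ± 0.30, adjusted p = 1.04e-05). Over the 6 tested genes of the BAG family list, members and others, 2 were higher and 2 lower in liver on day 0, with a median of -0.25. Of all probes 39.7% were higher and 43.4% lower. Between days 0 of the list passed in either tissue, against 2.67% higher and 1.32% lower of all probes in liver and 0% in neutrophils.

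J-domain proteins were split between the tissues. DNAJC6, or auxilin, which brings HSC70 to clathrin coats, had day 0 levels of -3.30, -3.42 and -2.46 in liver, against -8.10, -7.35, -6.54 and -7.03 in neutrophils, where it was not well above background. It was at least 5.35-fold higher in liver on day 0 (adjusted p = 1.41e-05) and at least 4.03-fold higher on day 7 (adjusted p = 2.36e-05). A bound of this kind sets the mean of the brighter group against the lowest signal counted as well above background on each array of the other. DNAJB4, a heart- and muscle-rich partner of HSP70, was at least 5.36-fold higher in liver on day 0 (adjusted p = 5.5e-05) and 3.6-fold higher on day 7 (1.85 ± 0.62, adjusted p = 0.0255), when 2 of 4 neutrophil arrays had it well above background. With normexp background correction its differences were 0.64 on day 7 (adjusted p = 0.0899) and 1.22 on day 0 (adjusted p = 7.61e-06). The day 7 call was lost without animal 58, 61, 66, 26 or 32, with an adjusted p of up to 0.0688.

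The J-domain genes lower in liver included DNAJB1, the main stress-inducible HSP40. Its day 0 levels were -1.31, -1.11 and -3.03 in liver, against 0.15, -0.03, -0.30 and 0.15 in neutrophils, 3.51-fold lower in liver (-1.81 ± 0.44, adjusted p = 0.00461). On day 7 it had -1.05, -1.71 and -3.19 in liver, against 0.50, -0.14, 0.69 and 0.25 in neutrophils (-2.31 ± 0.49, adjusted p = 0.00296). Animal 66 was the lowest liver on both days, and the tissues did not overlap on either. DNAJC14 had -4.04, -4.07 and -3.93 in liver on day 0, against -1.19, -1.53, -1.74 and -1.41 in neutrophils (-2.55 ± 0.17, adjusted p = 2.14e-06). DNAJB5, an HSP40 relative, had -2.55 ± 0.18 on day 0 (adjusted p = 2.36e-06) and -3.65 ± 0.48 on day 7 (adjusted p = 0.000178), when it was well above background on 1 of 3 liver arrays. With normexp these were -1.37 on day 7 and -1.19 on day 0, and both passed. DNAJB6, which restrains protein aggregation, was lower in liver by about as much on both days, with -1.12 ± 0.23 on day 7 (adjusted p = 0.00242) and -1.04 ± 0.16 on day 0 (adjusted p = 0.000295). DNAJA1, a cytosolic HSP40 that works on steroid receptors with HSP70, was lower in liver on day 0 (-0.87 ± 0.22, adjusted p = 0.00642), but with the row trend removed it had 0.40 (adjusted p = 0.136).

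Between days 0 of the J-domain members passed. In liver DNAJA1 had 3.30, 2.66 and 2.06 on day 7, against 2.23, 1.34 and 1.60 on day 0 (0.95 ± 0.19, adjusted p = 0.0856), and its probe sits in spot row 6, near the first edge of the array. With the row trend removed its change was -0.13. DNAJB5 had -6.47, -5.72 and -7.79 in liver on day 7, against -5.79, -5.31 and -5.52 on day 0 (-1.12 ± 0.39, adjusted p = 0.248), and DNAJB4 had -0.29 ± 0.10 (adjusted p = 0.243). In neutrophils DNAJB1 had a change of 0.33 ± 0.28 (adjusted p = 0.589), and the lowest changes among J-domain members belonged to DNAJB12, a J-domain protein of the endoplasmic reticulum membrane, and DNAJC5, the cysteine string protein of secretory vesicles. DNAJB12 had -2.67, -2.50, -2.27 and -4.36 on day 7, against -1.98, -2.25, -2.37 and -2.32 on day 0 (-0.72 ± 0.38, adjusted p = 0.432; -0.28 without animal 34). DNAJC5 had -4.24, -4.27, -4.35 and -5.50 on day 7, against -3.89, -4.09, -4.33 and -3.81 on day 0 (-0.56 ± 0.34, adjusted p = 0.466; -0.18 without animal 34). Animal 34 was the lowest for both on day 7.

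The CCT chaperonin subunits, all but 1, were higher in liver on day 0. Of the 8 measured subunit probes, 7 were higher in liver and 1 lower, against 39.7% and 43.4% of all probes. Their median was 1.44, against -0.12 for all probes. CCT3 had 3.39, 3.21 and 3.29 in liver, against 1.44, 0.78, 1.5 and 1.6 in neutrophils, 3.91-fold higher in liver (1.97 ± 0.22, adjusted p = 4.9e-05), and the tissues did not overlap. CCT5 (1.69 ± 0.29, adjusted p = 0.000696), CCT8 (1.65 ± 0.17, adjusted p = 2.81e-05), CCT7 (1.22 ± 0.18), CCT4 (1.05 ± 0.21) and TCP1 (0.58 ± 0.14, adjusted p = 0.00436) were higher as well. The exception was CCT6B, a subunit form best known from the testis and printed under another name, at -2.32 ± 0.15 (adjusted p = 1.84e-06). On day 7 only CCT3 of the 8 was higher (1.28 ± 0.27, adjusted p = 0.00256) and only CCT6B lower. Of all probes 34% were higher and 35.1% lower on that day. The median was 0.67, against -0.03 for all probes.

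In neutrophils 7 of the 8 CCT probes had a higher mean on day 7, 6 of them at an unadjusted p under 0.05, and 0 passed. Over all probes 44.6% had a higher mean on day 7 and 13.4% had an unadjusted p under 0.05. Their median change was 0.80, against -0.07 over all probes. CCT5 had -1.01, -1.38, -1.31 and -0.50 on day 7, against -2.0, -2.86, -1.84 and -1.70 on day 0 (1.05 ± 0.26, adjusted p = 0.300), and CCT4 had 2.83, 2.71, 3.35 and 4.28, against 2.31, 1.82, 2.50 and 2.55 (1.0 ± 0.28, adjusted p = 0.311). All 4 animals were higher on day 7 for both, without overlap. The median change of the 8 probes was 0.58, 0.77, 0.22 and 1.28 in animals 25, 26, 32 and 34, largest on the weak array of animal 34. Over the 36 members tested, animal 34 was the highest of the 4 on day 7 in 17 (47.2%) and the lowest in 9 (25%), against 34.2% and 41.4% of all probes. In liver the CCT median was 0.06, with 0 of 8 passing, and the largest change was 0.17 for CCT7. The difference between tissues in the day change had a median of -0.70 over the CCT probes, with 0 passing and the smallest adjusted p at 0.147 for CCT5.

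Sums of lymphocyte markers, which weigh the brightest probes most, were also higher in the day 7 neutrophil samples. The 10 T and cytotoxic lymphocyte markers summed to 59.6, 24.9, 22.9 and 104.5 times the 75th percentile in animals 25, 26, 32 and 34 on day 7, against 20.6, 10.8, 14.8 and 36.6 on day 0, and 8 of the 9 tested had a higher mean, 4 at an unadjusted p under 0.05. The 4 B lymphocyte markers summed to 6.19 to 10.5 times on day 7, against 2.83 to 5.73 times on day 0. Counted by marker, 9, 9, 8 and 5 of the 9 T markers tested were higher on day 7 in animals 25, 26, 32 and 34. Of the 4 B markers 4, 4, 4 and 1 were higher. In animal 34 the median change was 0.21 for the T markers and -0.57 for the B markers. Neither list had a probe that passed, and the part of lymphocyte RNA in the neutrophil values of HSP90AB1, HSPH1 and the CCT subunits was not tested.

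**Figure D4:**
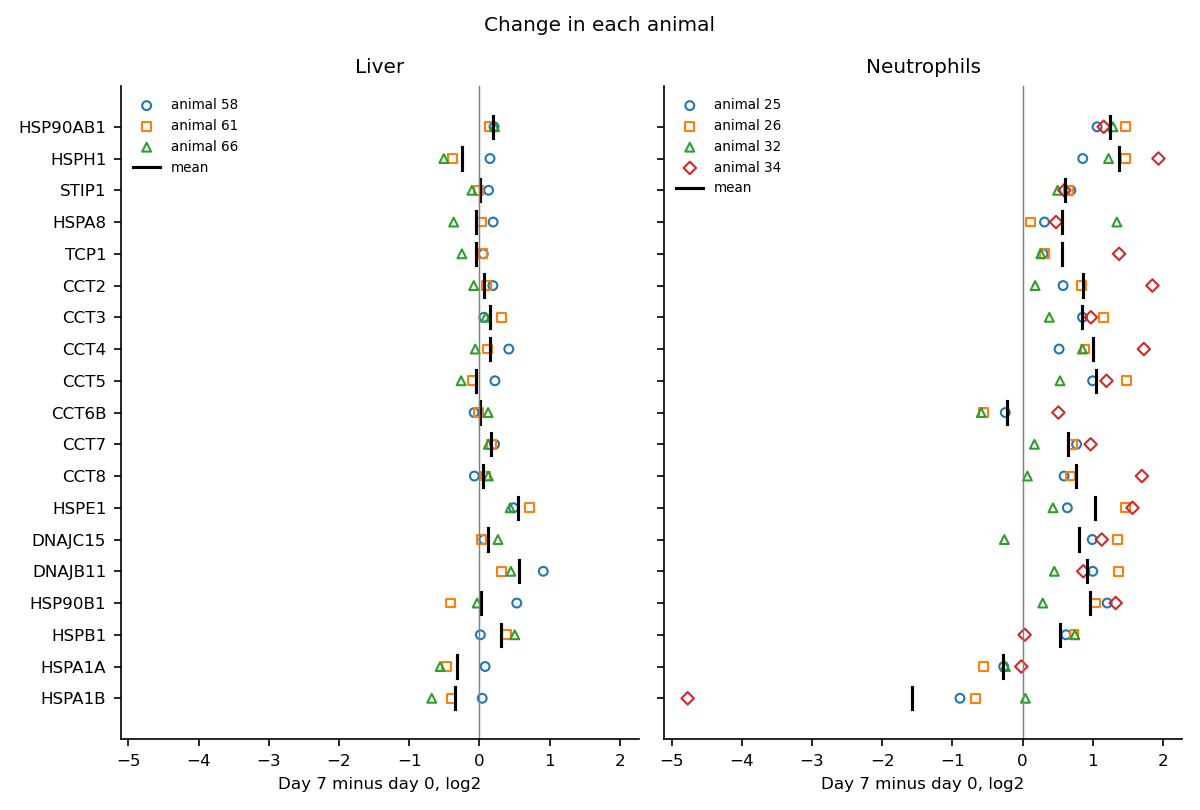
Change in log2 level, day 7 minus day 0, in each liver (left) and each neutrophil sample (right), with the mean as a bar, for cytosolic HSP90 and HSP70 genes, the CCT subunits and members of the organelles. In neutrophils HSP90AB1, STIP1 and all CCT subunits but CCT6B lie to the right of 0 in all 4 animals, and HSPA1B in animal 34 lies at -4.77.

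On the list of endoplasmic reticulum chaperones, 7 of 7 tested genes were higher in liver on day 0, against 39.7% of all probes. Their median was 2.22, against -0.12 for all probes. The list leaves out DNAJB12, also of the reticulum, which went the other way. Its day 0 levels were -3.25, -2.81 and -2.66 in liver, against -1.98, -2.25, -2.37 and -2.32 in neutrophils. CALR, calreticulin, a calcium-binding chaperone of glycoproteins, had 5.73, 5.8 and 4.74 in liver, against 4.0, 3.92, 4.31 and 4.56 in neutrophils (1.23 ± 0.30, adjusted p = 0.00463). DNAJB11, a cofactor of the reticulum's HSP70, had 0.98, 0.71 and 1.19 in liver, against -1.0, -2.04, -1.25 and -0.76 in neutrophils, 4.66-fold higher in liver (2.22 ± 0.31, adjusted p = 0.000176). The tissues did not overlap for either gene. Of the genes printed under other names, HSPA5, or BiP, that HSP70 itself, was 5.45-fold higher in liver (2.45 ± 0.23, adjusted p = 1.41e-05) and HSP90B1, the HSP90 of the reticulum, 7.51-fold (2.91 ± 0.23, adjusted p = 5.47e-06). On day 7, 6 of 7 were higher in liver, against 34% of all probes, and as reported CANX was the exception (0.57 ± 0.49, adjusted p = 0.316). With the row trend removed 7 of 7 passed on day 7, the lowest at 1.23. Over all alternatives the day 7 difference of CANX lay between 0.17 and 1.65, with a limma adjusted p between 0.00718 and 0.717.

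CANX, calnexin, the membrane-bound partner of calreticulin, had the lowest p among the members for a day difference in liver as reported. Its liver levels were -3.59, -4.33 and -4.84 on day 7, against -1.82, -2.0 and -2.46 on day 0. All 3 animals were lower on day 7, the days did not overlap, and it fell 4.47-fold (-2.16 ± 0.16, adjusted p = 0.0116). Its probe, shown above, sits in spot row 191, next to the last row of the array, where liver probes in general were lower on day 7: the median change over all tested probes of the last 4 rows was -0.99. With the trend along the rows removed, CANX changed by -0.84 and did not pass (adjusted p = 0.160), so the fall and the position on the array cannot be told apart by this probe. In neutrophils it had -4.23, -4.63, -4.45 and -5.99 on day 7, against -5.04, -4.45, -4.54 and -4.12 on day 0, with overlap (-0.29 ± 0.44, adjusted p = 0.769), and without animal 34 the sign turned to 0.24. The difference between tissues was -1.87 ± 0.58 and did not pass (adjusted p = 0.186); without animal 34 it passed (-2.40, adjusted p = 0.0138), and over all alternatives the adjusted p lay between 0.0138 and 0.550. PDIA3, the disulfide isomerase that works with CANX and CALR, is no member and sits in row 189. It had a liver change of -0.80 ± 0.13 (adjusted p = 0.0515) and 0.20 with the row trend removed.

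As reported, the other chaperones of the reticulum did not pass between days. CALR had a liver change of 0.17 ± 0.15 (adjusted p = 0.647) and a neutrophil change of 0.12 ± 0.27 (adjusted p = 0.856). DNAJC3, which restrains a kinase of the unfolded protein response, had 2.66, 2.18 and 2.04 in liver on day 7, against 1.91, 1.49 and 1.59 on day 0, without overlap (0.63 ± 0.11, adjusted p = 0.0644). It passed with normexp (adjusted p = 0.0298) and with probes above background on all liver arrays (adjusted p = 0.039), while with the row trend removed (row 13) it was 0.22 (adjusted p = 0.498). DNAJB11 had a liver change of 0.56 ± 0.15 (adjusted p = 0.156) and a neutrophil change of 0.92 ± 0.26 (adjusted p = 0.311). HSPA5 had -0.29 ± 0.14 in liver (adjusted p = 0.383) and -0.26 ± 0.36 in neutrophils (adjusted p = 0.75), while HSP90B1 had 0.03 ± 0.20 in liver (adjusted p = 0.963) and 0.96 ± 0.27 in neutrophils (adjusted p = 0.311).

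**Figure D5:**
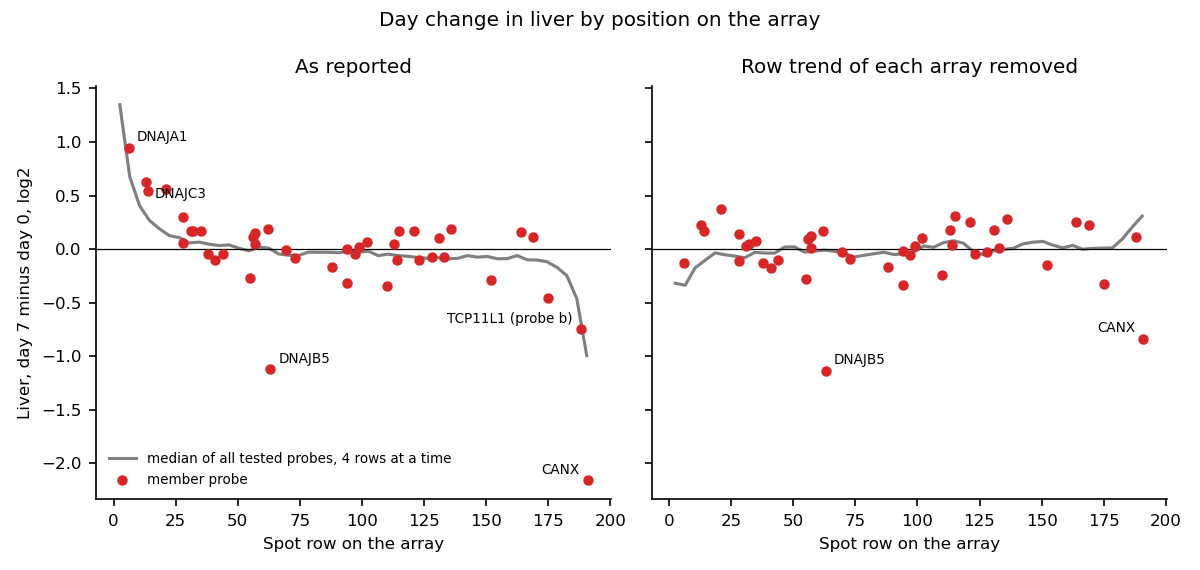
Day 7 minus day 0 in liver for each member probe (points) against its spot row on the array, with the median of all tested probes in every 4 rows (line), as reported (left) and after taking out the trend along the rows (right). The line runs at 1.35 in the first 4 rows and -0.99 in the last 4, CANX lies at -2.16 before and -0.84 after removal, and probe b of TCP11L1 is the second of its probes.

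Liver day changes were also set out by position on the array. In the first 40 rows, the 10 members tested in liver had a median change of 0.24, against 0.20 for all probes there, and in the last 40 rows the 5 members had -0.46, against -0.16. In the rows between, 0 of 27 members passed and their median was -0.047, against -0.044 for all probes there. With the row trend removed, 0 members were called in liver, against 0.293% of all probes. The removal overshot at the edges, where the median of all probes was then -0.32 in the first 4 rows and 0.31 in the last 4.

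Mitochondrial chaperones were higher in liver in 6 of 7 genes tested on each day, with a median of 2.08 on day 7 and 2.05 on day 0. Of all probes 34% on day 7 and 39.7% on day 0 were higher in liver, with medians of -0.03 and -0.12. HSPA9, mortalin, the mitochondrial HSP70, had -0.85, -0.99 and -0.78 in liver on day 0, against -4.96, -5.34, -5.02 and -5.13 in neutrophils, 19.0-fold higher in liver (4.24 ± 0.16, adjusted p = 7.94e-08). The HSPA9 probe was not well above background in neutrophils of animal 34 on day 0 and of animal 32 on day 7. Over all alternatives its difference lay between 2.17 and 3.83 on day 7 and between 2.58 and 4.30 on day 0, and it passed in each. HSPE1, the small subunit of the mitochondrial chaperonin, had 4.16, 3.74 and 3.44 in liver, against 0.37, -0.36, 0.37 and 0.60 in neutrophils, 11.6-fold higher in liver (3.54 ± 0.27, adjusted p = 4.63e-06). Its partner HSPD1 was not analysed here. DNAJC19, a J-domain protein of the protein import motor, had 1.18, 0.80 and 1.22 in liver, against -2.48, -2.71, -1.91 and -2.04 in neutrophils, 10.2-fold higher in liver (3.35 ± 0.24, adjusted p = 2.66e-06). DNAJC15, its relative in the inner membrane, differed by 2.05 ± 0.31 (adjusted p = 0.00031). None of these 4 tissue pairs overlapped, and on day 7 all 4 passed again, HSPA9 with 3.59 ± 0.39 (adjusted p = 5e-05) and HSPE1 with 3.06 ± 0.39 (adjusted p = 0.000134). The seventh gene, HSCB, which serves iron-sulfur cluster assembly, had 0.09 ± 0.20 on day 0 (adjusted p = 0.680).

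Over time HSPE1 had 4.65, 4.45 and 3.88 in liver on day 7, against 4.16, 3.74 and 3.44 on day 0. All 3 animals were higher on day 7 with overlapping ranges, and it did not pass (0.54 ± 0.11, adjusted p = 0.0837). It passed with normexp (adjusted p = 0.0465), and with the row trend removed (row 14) it was 0.17 (adjusted p = 0.641). In neutrophils it had 1.01, 1.1, 0.80 and 2.17 on day 7, against 0.37, -0.36, 0.37 and 0.60 on day 0, without overlap, and did not pass (1.02 ± 0.29, adjusted p = 0.311). DNAJC15 had a neutrophil change of 0.80 ± 0.33 (adjusted p = 0.361). DNAJC30, a mitochondrial J-domain protein printed under another name, had -5.24, -6.46, -6.21 and -6.70 in neutrophils on day 7, against -4.54, -4.66, -4.80 and -4.44 on day 0 (-1.55 ± 0.31, adjusted p = 0.298), and on day 7 only 1 of its 4 neutrophil values was well above background. Its probe sits in row 191, and with the trend removed the change was -1.17.

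Small heat-shock proteins held the widest tissue difference among the members. HSPB8, which works with BAG3 in chaperone-assisted autophagy, had day 0 levels of 4.46, 4.07 and 4.84 in liver, against -5.65, -6.80, -6.87 and -3.94 in neutrophils, where it was well above background on 2 of 4 arrays. The fitted difference was 10.27 ± 0.67 on the log2 scale (adjusted p = 1.69e-06), and on day 7, again with 2 of 4 neutrophil arrays well above background, it was 9.61 ± 0.54 (adjusted p = 1.06e-06). Over all alternatives the difference lay between 7.80 and 10.01 on day 7 and between 8.10 and 10.89 on day 0. HSPB1, or HSP27, which also binds actin, had 4.84, 4.53 and 4.50 in liver, against 2.41, 2.03, 2.43 and 2.96 in neutrophils on day 0, 4.49-fold higher in liver (2.17 ± 0.23, adjusted p = 3.69e-05). HSPB6, or HSP20, was lower in liver on day 0 (-0.78 ± 0.21, adjusted p = 0.00828) and had -1.06 ± 0.57 on day 7 (adjusted p = 0.126).

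None of the small heat-shock proteins passed between days. HSPB1 had 4.85, 4.91 and 5.0 in liver on day 7, without overlap with day 0 (0.30 ± 0.14, adjusted p = 0.355), and 3.03, 2.76, 3.17 and 2.99 in neutrophils on day 7 (0.53 ± 0.25, adjusted p = 0.399). CRYAB, or αB-crystallin, a small heat-shock protein abundant in muscle and printed under another name, had -1.83, -0.83 and -1.41 in liver on day 7, against -2.18, -2.61 and -2.96 on day 0. The days did not overlap and it did not pass (1.23 ± 0.31, adjusted p = 0.134). The 11 skeletal muscle markers summed to 5.08, 19.5 and 4.66 times the 75th percentile in livers 58, 61 and 66 on day 7, against 0.0962, 0.186 and 0.0618 times on day 0. Of the 10 tested, 9 rose, against 2.67% of all probes. MB, CKM, MYL1 and TNNC2 were well above background on 3 of 3 livers on day 7 and 0 of 3 on day 0, so they were tested through day 7 alone. Animal 61 had the highest sum and the highest CRYAB level of day 7, and the part of muscle RNA in the CRYAB values was not tested. HSPB8 and HSPB6, also known from muscle, had liver changes of -0.10 ± 0.15 (adjusted p = 0.787) and 0.11 ± 0.13 (adjusted p = 0.740).

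Some members share only a name with the family. HSPBAP1, which binds HSPB1 but is no chaperone, was 4.0-fold lower in liver on day 0 (-2.0 ± 0.18, adjusted p = 1.19e-05). TCP11L1, named for a testis protein unrelated to the chaperonin, has 2 probes. The first was lower in liver on day 0 (-1.02 ± 0.22, adjusted p = 0.00236) and had a liver day change of -0.07 ± 0.12 (adjusted p = 0.795). The second, in spot row 188, had -4.27, -3.99 and -4.26 in liver on day 7, against -3.51, -3.29 and -3.48 on day 0, and fell (-0.74 ± 0.10, adjusted p = 0.0328). Its days did not overlap, but the 2 probes disagreed, and with the row trend removed the second had 0.11 (adjusted p = 0.712). In neutrophils the second probe had -4.29, -3.84, -3.66 and -6.35 on day 7, against -3.46, -3.83, -3.54 and -3.41 on day 0 (-0.97 ± 0.50, adjusted p = 0.422; -0.32 without animal 34).

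Genes of folding outside the name rule were counted by list on day 0, when 39.7% of all probes were higher in liver and 43.4% lower. Among other HSP90 and HSP70 cochaperones 9 of 14 were higher and 2 lower, led by SIL1, the exchange factor of BiP (4.57 ± 0.21, adjusted p = 2.02e-07), and FKBP4, an HSP90-bound immunophilin (4.21 ± 0.25, adjusted p = 1.06e-06). Of the reticulum's folding enzymes and unfolded protein response genes, 12 of 15 tested probes were higher and 1 lower. P4HB, a protein disulfide isomerase, had 3.46 ± 0.14 (adjusted p = 1.12e-07), and ATF4, a stress-response transcription factor, was lower (-2.93 ± 0.22, adjusted p = 4.09e-06). Prefoldin, which hands actin and tubulin to CCT, and its relatives had 5 of 8 higher and 1 lower, PDCL, a regulator of G protein and CCT function (-4.65 ± 0.19, adjusted p = 1.18e-07). Of the heat-shock factor list only HSF2BP, a binding partner of HSF2, was measured, and it was higher in liver (1.33 ± 0.36, adjusted p = 0.00856). Between days 0 genes of these 4 lists passed in either tissue. The smallest adjusted p among them in neutrophils was that of PPID, an HSP90-bound cyclophilin (1.16 ± 0.29, adjusted p = 0.300).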

How the data were processed

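Total RNA was extracted with Trizol and amplified linearly with a low-input kit, per the labels' protocols. The deposited scanner output holds spot intensities that Feature Extraction (9.5.1.1 per the file headers, 9.5 per the submitters' processing notes) had corrected for background, and these processed intensities were used. Mean and local background intensities, not corrected according to the file headers, served for 1 alternative. Flags and grid positions are other columns of that output, per the file headers. The authors' deposited table of log2 values was set against the scanner values: each column was log2 of the processed signal less 1 constant (correlation 1, difference from the 75th percentile scaling -0.0132 to -0.00432, column medians -3.55 to -2.69), so its scale, centring and direction are known.

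Control and outlier spots (0 to 18 per array) were left out, and log2 signals minus each array's 75th percentile were averaged over the spots of 1 probe sequence. Names came from the files and a RefSeq gene table. Of 15011 probes, 5981 had a symbol and 9030 none. The printed HSPA3, HSPA9B and canx are given as HSPA2, HSPA9 and CANX. The DNAJC14 sequence is in 2 spots, 1 of which is printed under another gene's name.

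Probes were tested where, in 1 or more of the groups compared, each array had them well above background. They were fitted with limma 3.58.1 (R 4.3.3; lmFit and eBayes, two-sided, Benjamini-Hochberg over all probes tested, threshold 0.05), checked on simulated data. Each tissue was fitted alone with the animal as a block. The difference in day change used all 14 arrays. Tissues were compared within a day without a block. Errors are the moderated standard errors of these fits. Labels name the same animal on both days, and paired deviations correlated at 0.65, 0.32 and 0.61 in liver and 0.61, 0.36, 0.03 and 0.24 in neutrophils. A loess curve through the row medians of each array (span 0.15) served as row trend. The number of arrays limits the precision.

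Members with values on every array are those with adjusted p under 0.05 in a day comparison, filled by smallest p to 5 per direction, the 10 per direction with the largest difference between tissues passing on both days, and chosen core genes; others stand in counts. Members and lists were chosen with earlier results of these data known. Alternatives were no block, quantile normalization, normexp (offset 50) with quantile normalization, the authors' values, other filters, the row trend removed, the array without the 40 rows at each edge, a threshold of 0.1, 1 fit over all arrays and each animal left out.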

Additional observations from a re-analysis of the deposited data

Results flagged for a closer look

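DNAJC5, the cysteine string protein, had a log2 level of -5.50 in neutrophils of animal 34 on day 7, far below the -4.24, -4.27 and -4.35 of animals 25, 26 and 32 on that day. Its gap to the nearest other sample was 0.907 of the group's range, above Dixon's critical value at 95% for 4 samples. This was the only such sample in 56 groups of 4 examined, and chance marks about 1 in 20 such groups. The same array was the weakest of the series, and DNAJC5 was not well above background there.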

How the results depend on the processing

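Of 1336 recomputed values for 100 results, 1259 were classed as unchanged. For a single gene this meant the same direction and side of the threshold. For a count or a median it meant a value close to that reported, whatever its sign. The liver median, for example, lay between -0.013 and 0.055 with an animal left out and was classed as unchanged. Among these 100 results none passed after turning sign, and only the second TCP11L1 probe in liver had passed before. The difference of DNAJA1 between tissues on day 0 is not among them. It also passed before and turned sign with the row trend removed. The 2 members called in liver were 1 without the animal as a block (no replicate block) and 1 with quantile normalization, 3 with normexp (DNAJC3 and HSPE1 higher, CANX lower) and 3 with probes above background on all liver arrays, and 0 without a filter on dim probes, with the row trend removed or without the 40 rows at each edge, against 5 at an adjusted p of 0.1 and 0 to 1 with an animal left out. The liver median of 0.03 was -0.047 without the edge rows. In neutrophils 0 members passed under every alternative run, pairing included, and the median of 0.34 lay between 0.16 and 0.47 with an animal left out. Members called for the difference in day change were 1 with normexp, 1 at an adjusted p of 0.1 and 0 to 2 with an animal left out (2 without animal 34). Between tissues, the 24 of 42 members higher on day 0 were 15 of 27 without the edge rows, and the 10 lower were 6 in 1 fit over all arrays. The 17 of 41 members higher on day 7 were 10 of 26 without the edge rows and 12 to 21 with an animal left out. They were 11 when only probes above background on all arrays were kept, where fewer members were tested. Signs turned with the row trend removed for DNAJA1 (-0.13) and the second TCP11L1 probe (0.11) in liver and CANX (0.089) in neutrophils. They turned with an animal left out for liver DNAJB1 (-0.38 to 0.051) and HSPA8 (-0.17 to 0.11), and for neutrophil CALR (-0.025 to 0.31) and CANX (-0.65 to 0.24). In the difference in day change they turned for CALR (-0.084 with normexp, -0.085 with quantile normalization, -0.14 to 0.23 with an animal left out) and HSPA1A (-0.24 to 0.081 with an animal left out). Between tissues HSPA8 (0.18) and HSPA1A (0.23) on day 0 and HSPA1A on day 7 (0.11) turned with normexp and with quantile normalization. The causes were not tested.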
